A study of Mus musculus with 12 samples.

Results

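The transcription factors described here are the FOS family (Fos, Fosb, Fosl1 and Fosl2), the JUN family (Jun, Junb and Jund), Atf3 and Egr1. They were taken by gene symbol, 9 of the 22915 genes in the table, and all 9 passed the filter on low values (10 or more in no fewer than 3 of the 12 libraries), which left 13184 genes to test. Primary cardiomyocytes of male C57/Bl6 mice, 12 weeks of age, were exposed in culture for 24 h under normoxia to PBS, mLIF, mOSM or hlOSM, with 3 libraries per condition. Murine leukemia inhibitory factor (mLIF) signals through LIFR and murine oncostatin M (mOSM) through OSMR, while hlOSM is a murine OSM with the AB loop of the human protein and signals through both receptors. The labels give 25 ng/mL for each recombinant protein, and the methods of the study give a lower concentration. Whether same-numbered libraries share a cell preparation is stated by neither source, so that p-values measure only the spread between these libraries, which may be technical. Values are normalized counts per gene, rounded to whole numbers and not divided by gene length. In these values, 1.7% of the variance within conditions lay between replicate numbers, against a share of 25% without any effect of the number. The sources used here name no step that takes such an effect out before deposit. If there was such a step, p-values without a block for the replicate number are too small. For the 9 factors, the blocked value is therefore given wherever it ends a call. For the gene lists, blocked counts against PBS are given where they differ. The normalized counts added up to between 2745748 and 2911891 per library, which is not a number of sequenced reads, and the depth behind each value is therefore unknown.

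AP-1 is a dimer of basic leucine zipper proteins. JUN proteins pair with each other, with FOS proteins or with ATF proteins, while FOS proteins do not form stable dimers with each other and need a JUN partner. The dimers bind the motif TGANTCA or, with ATF partners, TGANNTCA. Fos, Jun, Fosb, Junb, Atf3 and Egr1 are classical immediate early genes. Their transcripts rise within minutes of a stimulus through the ERK, JNK, p38 and CREB pathways and are short-lived, so that levels after 24 h are those of prolonged exposure. In cardiac muscle, these factors are known for their response to stretch, ischemia and hypertrophic hormones.

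RefSeq promoters were found for 7 of the 9 genes (assembly GRCm38.p6, the assembly of mm10), with no entry for Fosl1 and Egr1. The 200 bases before the RefSeq start are shown for Fos, Jun and Junb, since Fos and Jun fell with hlOSM while Junb rose. The sequences read 5′ to 3′ on the strand of the gene, with capitals for TGACG (the core of the CREB/ATF motif) or TGANNTCA. Fos lies on the plus strand (chr12:85473690-85473889), Jun on the minus strand (chr4:95052223-95052422) and Junb on the minus strand (chr8:84978749-84978948).
Fos: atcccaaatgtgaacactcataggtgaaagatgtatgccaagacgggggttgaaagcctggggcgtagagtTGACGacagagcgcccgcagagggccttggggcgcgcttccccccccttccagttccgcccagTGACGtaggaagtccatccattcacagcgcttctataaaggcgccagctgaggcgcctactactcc
Jun: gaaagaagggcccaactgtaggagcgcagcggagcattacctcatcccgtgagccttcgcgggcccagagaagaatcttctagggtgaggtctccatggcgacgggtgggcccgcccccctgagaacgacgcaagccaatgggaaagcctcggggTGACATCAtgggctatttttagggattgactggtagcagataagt
Junb: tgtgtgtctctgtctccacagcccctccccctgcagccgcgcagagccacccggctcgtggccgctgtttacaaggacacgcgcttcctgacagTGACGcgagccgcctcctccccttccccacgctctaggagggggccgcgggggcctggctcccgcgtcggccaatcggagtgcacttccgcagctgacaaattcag

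Counted back from the RefSeq start, the Fos window held TGACG from position −129 and again from −66, the Jun window held TGACATCA from −45, and the Junb window held TGACG from −106. Both strands were searched in windows of 200 bases, and no match to TGACG overlapped one to TGANNTCA in the windows of these genes. TGACG was present in the windows of 4 genes (Fos, Fosb, Junb and Atf3), against 15.7% of all 32851 RefSeq promoter windows. TGANNTCA was present for Jun and Jund, against 10.2% of all windows. The shorter TGANTCA occurred in 5.48% of all windows and the STAT motif TTCNNNGAA in 5.49%, and neither was found in the 7 windows. The CArG box, at which serum response factor binds, occurred in 1.18% of all windows and in none of the 7. Bases further upstream were not searched, nor were other forms of these motifs, such as STAT sites that differ from TTCNNNGAA. An absence here thus does not show that a gene or its window lacks such a site. The EGR motif GCGNGGGCG was present for Fosb and Fosl2, against 4.28% of all windows. The RefSeq starts of Fosb, Fosl2 and Atf3 lie inside the gene as the table gives it, so that these windows hold exonic bases of the same gene. For Atf3, the RefSeq start is base 191183333 of chromosome 1. For Fosb, it is base 19310045 of chromosome 7, close to the start in the table at 19310051. The RefSeq starts of Jund and Junb, at bases 70697739 and 84978748 of chromosome 8, lie before those in the table, at 70698949 and 84978718. The windows of Fosl2, Atf3 and Jund may thus not be the promoters in use. The matches describe the letters of the windows, and no binding was measured.

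All 9 genes are protein-coding. On mm10, Fos lies at chr12:85473890-85477273, Fosb at chr7:19302696-19310051, Fosl1 at chr19:5447547-5455946 and Fosl2 at chr5:32135801-32157842. Jun lies at chr4:95049034-95052222, Junb at chr8:84976910-84978718, Jund at chr8:70698949-70700616, Atf3 at chr1:191170296-191218039 and Egr1 at chr18:34859823-34864984. The 3 JUN genes consist of 1 exon each in the GENCODE M21 annotation, while the exons of the other genes merge into 2 to 5 blocks. Genes on the opposite strand overlap 57.2% of the exonic bases of Fosl1 (Ccdc85b), 52.6% of those of Jund (Gm11175) and 7.28% of those of Jun (Junos). Reads lying on several genes were excluded by the authors, and the strand setting of the counting is not given in the sources used here, so that reads of these pairs could be split or lost. The normalized counts of Ccdc85b lay between 37 and 50 over all libraries, those of Junos between 2 and 8 and those of Gm11175 between 0 and 7.

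Per kilobase of exon, Junb was the most abundant of the factors in PBS–treated cardiomyocytes, with a normalized count of 177 ± 6.11 (SD, n = 3), followed by Atf3 with 170 ± 19.8 (SD, n = 3). Their libraries overlapped, so that this order was not larger than the spread. Jun followed with 138 ± 6.83 (SD, n = 3), Egr1 with 120 ± 9.73 (SD, n = 3) and Jund with 97.3 ± 2.11 (SD, n = 3), each without overlap with its neighbors. Fos, Fosl1 and Fosl2 formed a group at 66.5, 65.7 and 62.2 per kilobase, in which neighbors overlapped. All exonic bases were counted in the length, also those overlapped by other genes (57.2% for Fosl1, 52.6% for Jund and 7.28% for Jun). If reads there were lost, the levels of these genes are too low. Fosb, whose protein resembles FOS and whose ΔFosB variant is long-lived, was far below the rest with 3.10 ± 0.333 (SD, n = 3) per kilobase. Fosb was the lowest of the 9 in every condition. With mLIF, Atf3 (193 per kilobase) and Junb (183) led with overlapping libraries, while with mOSM and hlOSM Junb led with 220 and 208. In hlOSM, Junb lay above Atf3 (179 per kilobase) without overlap. Jun was the third in PBS, the fourth in mLIF and the fifth in mOSM and hlOSM, where its 112 and 104 per kilobase overlapped with the levels of its neighbors Jund and Fosl1.

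**Figure D1:**
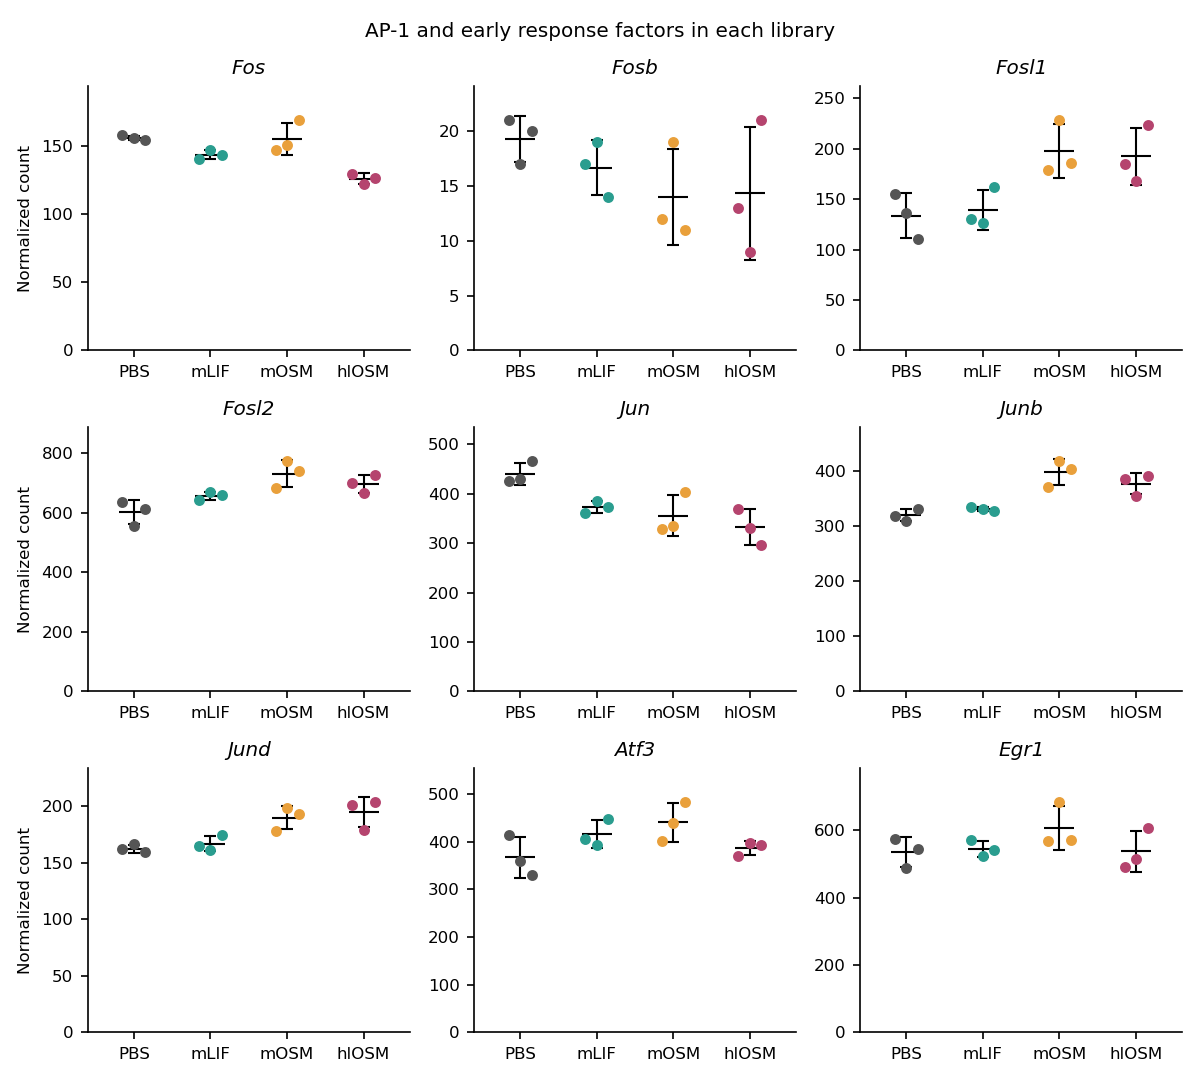
Normalized counts of the 9 factors (vertical axes from 0, not divided by gene length) in PBS, mLIF, mOSM and hlOSM. Points are libraries, and bars give the mean ± SD of 3 libraries. Jun lies below PBS in every cytokine library, Fos of hlOSM lies between 122 and 130 and below every other library, and Junb, Jund, Fosl1 and Fosl2 of mOSM and hlOSM lie above those of PBS.

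Against PBS, both mOSM and hlOSM lowered Jun and raised Junb, and hlOSM raised Jund, whereas mLIF changed no factor past the threshold (limma on log2(normalized count + 1), two-sided Benjamini-Hochberg adjusted p under 0.05 over all genes tested). Fosl1 and Fosl2 rose with mOSM and hlOSM, and Fos fell with hlOSM. Atf3 and Jund also passed with mOSM, but Jund not with a block for the replicate number (adjusted p = 0.0672), and both lost this call without some single libraries, which are named with their values. Fosb and Egr1 did not pass the threshold in any comparison. With mLIF, 0 of 9 factors were called, against 9.91% of all genes tested, and 3 of 9 (Jun, Fosl2 and Atf3) had an unadjusted p under 0.05, against 25.7% of all genes. With mOSM, 5 of 9 factors rose, against 15.4% of all genes, and 1 of 9 fell, against 15.8%. With hlOSM, 4 of 9 rose, against 18.2% of all genes, and 2 of 9 fell, against 19.8%. Over the 9 factors, the median log2 fold change against PBS was 0.04 for mLIF, 0.22 for mOSM and 0.08 for hlOSM, while it was between −0.01 and 0.00 over all genes tested. Libraries did not overlap with PBS for 3 of 9 factors in mLIF, 5 of 9 in mOSM and 6 of 9 in hlOSM, against 30.3%, 40.1% and 47.0% of all genes. The 3 comparisons share the PBS libraries. An F test over the 4 conditions called 7 of 9 factors, against 34.2% of all genes. With replicate number as a blocking factor, that test called 5 of 9, against 26.1% of all genes, with adjusted p = 0.0547 for Jund and 0.0748 for Atf3.

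Markers of several cell types moved along with the cytokines. The summed normalized counts of 10 cardiomyocyte markers (including Ttn, Myh6, Tnnt2 and Actc1) lay between 51743 and 53874 in PBS, 45234 and 47476 in mLIF, 37188 and 41702 in mOSM and 37994 and 40645 in hlOSM. These sums mainly follow Ttn, which had 32687, 32934 and 33150 in PBS and 22374, 24446 and 23871 in hlOSM. By gene, 6 of 10 were lowered by mLIF and 7 of 10 by mOSM and by hlOSM. For 8 endothelial markers the sums lay between 1328 and 1415 in PBS, 1356 and 1429 in mLIF, 1691 and 2008 in mOSM and 1735 and 1847 in hlOSM, with 6 of 8 raised by mOSM and by hlOSM. Sums of 8 fibroblast markers lay between 2296 and 2526 in PBS, 2110 and 2251 in mLIF, 2459 and 2885 in mOSM and 2307 and 2540 in hlOSM, with 2 raised and 3 lowered by mOSM, and 3 raised and 5 lowered by hlOSM. Sums of 6 smooth muscle and pericyte markers lay between 417 and 550 in PBS, 401 and 433 in mLIF, 239 and 294 in mOSM and 236 and 249 in hlOSM, with 4 of 5 tested lowered by mOSM and by hlOSM. Sums of 8 macrophage and leukocyte markers lay between 309 and 335 in PBS, 288 and 327 in mLIF, 353 and 393 in mOSM and 328 and 399 in hlOSM. Of the 6 tested, 1 was raised and 1 lowered by mOSM and by hlOSM. The higher sums mainly follow Cd68, which had 61, 60 and 40 in PBS, 108, 143 and 125 in mOSM, and 118, 109 and 170 in hlOSM. Lyz2 went the other way, with 164, 181 and 184 in PBS, 154, 157 and 158 in mOSM, and 163, 140 and 135 in hlOSM. In the blocked fit, 4 of 10 cardiomyocyte markers were lowered by mLIF, and 5 of 8 endothelial markers were raised by hlOSM. Fibroblast markers raised by hlOSM were then 2, and leukocyte markers lowered by mOSM were 0. The other counts given here did not change. Without the block, 9.91% of all genes were called with mLIF. With mOSM, 15.4% rose and 15.8% fell, and with hlOSM 18.2% rose and 19.8% fell. None of these markers was at 0 in every library, and Cnn1, C1qa and Cd14 stayed under 10 in all. The part of these other cells in the changes of the 9 factors was not tested. In bulk libraries, fewer cells of a type and less RNA per cell cannot be told apart.

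Jun encodes c-Jun, the strongest activator of the family and the chief substrate of JNK. Its normalized counts were 425, 430 and 465 in PBS, 360, 385 and 373 in mLIF, 329, 334 and 404 in mOSM, and 369, 331 and 297 in hlOSM. All 9 cytokine libraries thus lay below the 3 PBS libraries. On the log2 scale, Jun changed by −0.31 with mOSM (SE 0.08, adjusted p = 0.00471) and by −0.41 with hlOSM (SE 0.08, adjusted p = 0.000344). The change with mLIF was −0.24 (SE 0.08, 95% confidence interval −0.40 to −0.07) with an adjusted p of 0.0607. Jun kept its call with mOSM and hlOSM when any single library was left out, and it passed the threshold with mLIF without hlOSM 1 (adjusted p range over the 12 such fits 0.0269 to 0.216), without hlOSM 3 or without mOSM 3.

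Junb and Jund encode the other JUN proteins, which are weaker activators and can restrain c-Jun in a dimer. Junb had normalized counts of 318, 309 and 331 in PBS, 335, 330 and 327 in mLIF, 371, 417 and 404 in mOSM, and 386, 355 and 390 in hlOSM. Every mOSM and hlOSM library lay above every PBS and mLIF library. The log2 fold change was 0.31 with mOSM (SE 0.06, adjusted p = 0.000488) and 0.24 with hlOSM (SE 0.06, adjusted p = 0.00432), and 0.05 with mLIF (95% confidence interval −0.08 to 0.18, adjusted p = 0.650). Jund had 162, 166 and 159 in PBS, 165, 161 and 174 in mLIF, 178, 198 and 193 in mOSM, and 201, 179 and 203 in hlOSM. Again, mOSM and hlOSM libraries lay above those of PBS and mLIF without overlap. The rise of Jund was 0.22 with mOSM (SE 0.08, adjusted p = 0.0278) and 0.26 with hlOSM (SE 0.08, adjusted p = 0.0100). In the fit blocked by replicate number, the adjusted p of Jund with mOSM was 0.0672, which left 5 of 9 factors called by mOSM, against 25.3% of all genes. Without PBS 1, PBS 3, mOSM 2 or mOSM 3, the call of Jund with mOSM was lost, with log2 fold changes between 0.19 and 0.27 over all libraries left out in turn.

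Expressed as a share of the JUN family per exonic length, Jun made up 33.5% ± 0.806 in PBS (SD, n = 3), and the corresponding values were 29.2% ± 0.895 for mLIF, 25.0% ± 2.07 for mOSM and 24.3% ± 2.30 for hlOSM. Its highest library in the cytokine groups, with 30.2% in mLIF, was below its lowest in PBS, with 32.8%. Junb held 42.2% to 43.3% of the family in PBS, 45.0% to 46.6% in mLIF, 48.0% to 50.8% in mOSM and 47.5% to 50.1% in hlOSM, without overlap between PBS and any cytokine. Jund held 23.6% in PBS and 27.1% in hlOSM. In the FOS family, the share of Fos reached from 31.6% to 35.3% in PBS and from 22.3% to 25.3% in hlOSM, and that of Fosl1 from 29.0% to 35.9% in PBS and from 40.3% to 45.4% in hlOSM, both without overlap. Fosl2 remained between 29.7% and 35.2% in all libraries. If reads on exons overlapped by other genes were lost, the shares of Jund and Fosl1 are too low. These shares describe transcripts, not proteins or dimers, and the shares of a family depend on each other, so that no test was run on them.

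**Figure D2:**
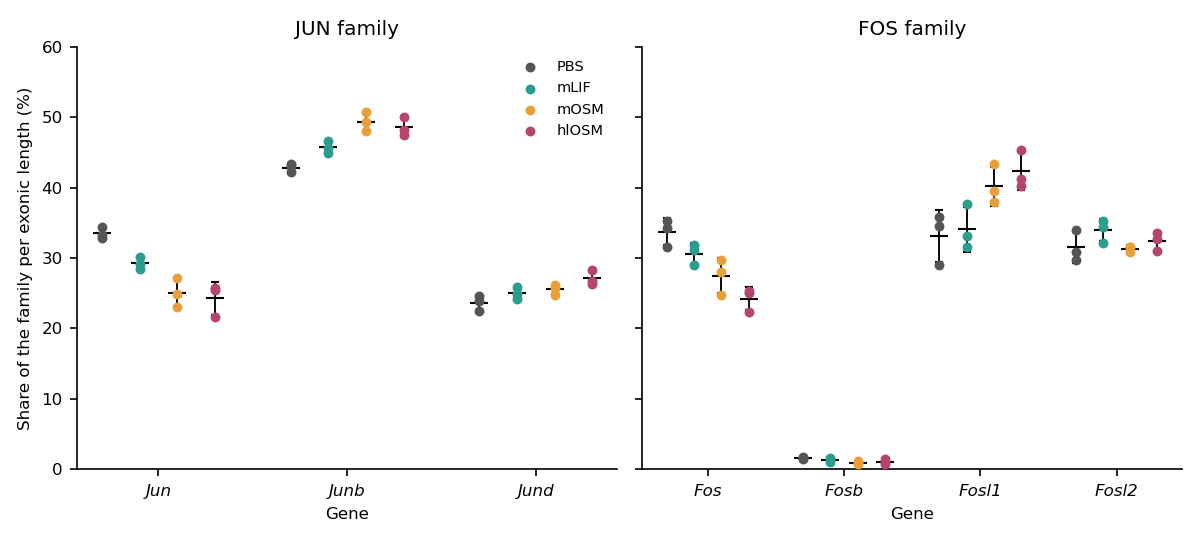
Share of each gene in the summed level of its family per exonic length (vertical axis, %), for the JUN family on the left and the FOS family on the right. Points are libraries, and bars give the mean ± SD of 3 libraries per condition. Jun declines from 33.5% in PBS to 24.3% in hlOSM and Fos from 33.7% to 24.2%, while Junb and Fosl1 hold larger shares with mOSM and hlOSM than with PBS.

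Fos encodes c-Fos, the classical partner of c-Jun. Its normalized counts were 158, 156 and 155 in PBS, 141, 147 and 144 in mLIF, 147, 151 and 169 in mOSM, and 130, 122 and 127 in hlOSM. The hlOSM libraries were the lowest of all 12, while the mOSM libraries lay on both sides of PBS. Fos changed by −0.31 on the log2 scale with hlOSM (SE 0.08, adjusted p = 0.00342). The change was −0.12 with mLIF (95% confidence interval −0.28 to 0.04, adjusted p = 0.351), although the mLIF libraries lay below those of PBS without overlap, and −0.01 with mOSM (95% confidence interval −0.17 to 0.15, adjusted p = 0.947). The call with hlOSM was kept with the block and without any single library.

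Fosl1 and Fosl2 encode FRA-1 and FRA-2, which lack the strong activation domain of c-Fos and typically follow it in time. Fosl1 had 155, 136 and 110 in PBS, 130, 126 and 162 in mLIF, 179, 228 and 186 in mOSM, and 185, 168 and 224 in hlOSM. Its spread within a condition was large, but mOSM and hlOSM did not overlap with PBS or mLIF. Fosl1 showed the highest log2 fold changes of the 9 factors, 0.57 with mOSM (SE 0.13, adjusted p = 0.00133) and 0.53 with hlOSM (SE 0.13, adjusted p = 0.00206), with 0.06 for mLIF (95% confidence interval −0.20 to 0.32). Fosl2 had 635, 556 and 614 in PBS, 642, 670 and 658 in mLIF, 682, 772 and 740 in mOSM, and 699, 667 and 727 in hlOSM. Every cytokine library of Fosl2 lay above every PBS library. Its log2 fold change was 0.28 with mOSM (SE 0.06, adjusted p = 0.00103), 0.21 with hlOSM (SE 0.06, adjusted p = 0.00743) and 0.13 with mLIF (SE 0.06, adjusted p = 0.184). Without PBS 2, which held the lowest value, the adjusted p of Fosl2 with hlOSM was 0.0633.

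Fosb counts were low and scattered, with 21, 17 and 20 in PBS, 17, 19 and 14 in mLIF, 12, 19 and 11 in mOSM, and 13, 9 and 21 in hlOSM. The groups overlapped. The 95% confidence interval of its log2 fold change reached from −1.04 to 0.08 with hlOSM (adjusted p = 0.173) and from −1.03 to 0.09 with mOSM (adjusted p = 0.198) and thus included 0 as well as changes larger than those of any other factor. Without hlOSM 3, which held the highest value of its group, Fosb passed the threshold with hlOSM (adjusted p = 0.0361, log2 fold change −0.78).

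Atf3 encodes a stress-induced factor that represses transcription as a homodimer and pairs with JUN proteins. It had 413, 359 and 329 in PBS, 406, 392 and 448 in mLIF, 401, 439 and 482 in mOSM, and 369, 397 and 392 in hlOSM. PBS 1 lay within the range of each cytokine or above it, so that no group was separated from PBS. Atf3 rose by 0.27 on the log2 scale with mOSM (SE 0.08, adjusted p = 0.0131), and this call was lost without PBS 3 or without mOSM 3 (adjusted p up to 0.0952). The values were 0.18 with mLIF (95% confidence interval 0.02 to 0.35, adjusted p = 0.150) and 0.08 with hlOSM (95% confidence interval −0.09 to 0.24, adjusted p = 0.465). Without PBS 1, Atf3 passed the threshold with mLIF (adjusted p = 0.0372).

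Egr1 encodes a zinc finger factor outside the AP-1 family that shares the upstream ERK and serum response factor input of Fos. Its normalized counts were 575, 489 and 545 in PBS, 571, 525 and 541 in mLIF, 568, 683 and 572 in mOSM, and 491, 514 and 608 in hlOSM. All groups overlapped. The log2 fold change was 0.00 with hlOSM (95% confidence interval −0.17 to 0.17, adjusted p = 0.996), 0.03 with mLIF (95% confidence interval −0.14 to 0.19) and 0.18 with mOSM (95% confidence interval 0.01 to 0.34, adjusted p = 0.0985).

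**Figure D3:**
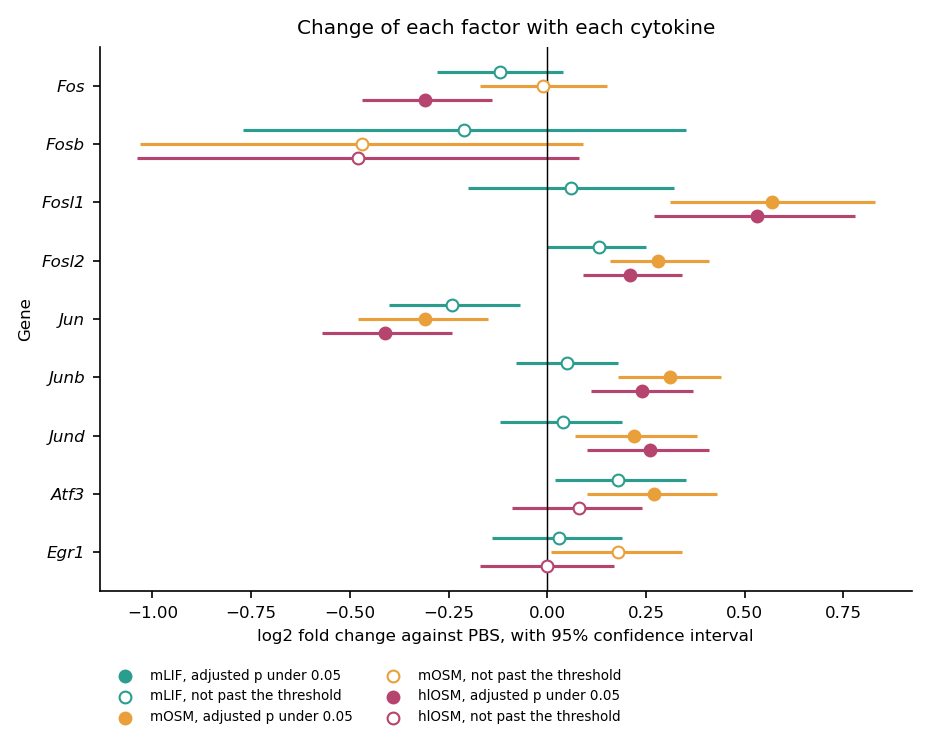
Log2 fold change of each factor against PBS (horizontal axis), with its 95% confidence interval from limma, for mLIF, mOSM and hlOSM. Filled symbols passed an adjusted p under 0.05. No mLIF symbol is filled, Jun is lowered and Junb, Jund, Fosl1 and Fosl2 are raised with mOSM and hlOSM, and Fos is filled with hlOSM alone, at −0.31. Jund with mOSM is not called with a block for the replicate number (adjusted p = 0.0672).

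Between cytokines, hlOSM, which signals through both receptors, was compared with mOSM, which signals through OSMR. The proteins also differ in their AB loop, so that LIFR signaling and other properties of the protein cannot be told apart. In this comparison, 0 of 9 factors passed the threshold, against 0.106% of all genes tested (14 genes), and 3 of 9 (Fos, Atf3 and Egr1) had an unadjusted p under 0.05, against 7.49% of all genes. Each of these 3 was lower with hlOSM. Fos differed most, by −0.30 on the log2 scale (95% confidence interval −0.46 to −0.14, unadjusted p = 0.000920, adjusted p = 0.200), and its hlOSM libraries, with at most 130, did not overlap with those of mOSM, with at least 147. Atf3 differed by −0.19 (95% confidence interval −0.35 to −0.02, adjusted p = 0.592), also without overlap, and Egr1 by −0.18 (95% confidence interval −0.34 to −0.01, adjusted p = 0.642) with overlap. Non-overlapping libraries were found in 9.74% of all genes in this comparison. For Junb, Jund, Fosl1, Fosl2 and Jun, the difference lay between −0.10 and 0.03, with 95% confidence intervals that reached from −0.30 to 0.22 for Fosl1 and from −0.26 to 0.07 for Jun. Consequently, neither the loss of the Atf3 call nor the gain of the Fos call with hlOSM was itself a difference past the threshold.

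Against mLIF, mOSM raised 2 of 9 factors, against 6.05% of all genes tested, namely Junb by 0.26 (SE 0.06, adjusted p = 0.00597) and Fosl1 by 0.50 (SE 0.13, adjusted p = 0.00869). The call of Fosl1 was lost without mLIF 2 or without mOSM 2 (adjusted p up to 0.0607). In the comparison of hlOSM with mLIF, 3 of 9 factors rose, against 7.42% of all genes. These were Fosl1 by 0.46 (SE 0.13, adjusted p = 0.0129), Junb by 0.19 (SE 0.06, adjusted p = 0.0414) and Jund by 0.22 (SE 0.08, adjusted p = 0.0495). In the blocked fit, Fosl1 kept its call (adjusted p = 0.0195), while Junb (adjusted p = 0.0909) and Jund (adjusted p = 0.117) did not, so that 1 of 9 remained, against 12.2% of all genes. The count for hlOSM against mLIF was 0 of 9 without mLIF 1, without mLIF 2 or without hlOSM 3, and 1 of 9 without PBS 1, without mLIF 3 or without hlOSM 1. No factor was lowered by hlOSM or mOSM relative to mLIF, against 9.22% and 5.76% of all genes. Libraries of 4 of 9 factors did not overlap between hlOSM and mLIF and of 4 of 9 between mOSM and mLIF, against 31.7% and 27.1% of all genes. Jun with hlOSM was −0.17 relative to mLIF (95% confidence interval −0.34 to −0.00, adjusted p = 0.164) and Jun with mOSM −0.07 (95% confidence interval −0.24 to 0.09, adjusted p = 0.641), so that Jun was not shown to differ between the cytokines.

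Other early response genes moved in both directions. Of 28 listed genes, 26 passed the filter. With mLIF, 5 rose and 2 fell (median log2 fold change 0.03). With mOSM, 10 rose and 7 fell (median 0.09), and with hlOSM 10 rose and 10 fell (median −0.09, against −0.01 for all genes tested), where 18.2% of all genes rose and 19.8% fell. Of all genes, 15.4% rose and 15.8% fell with mOSM, and 9.91% were called with mLIF. In the blocked fit, 4 rose and 2 fell with mLIF, 9 rose and 7 fell with mOSM, and 9 rose and 9 fell with hlOSM. Arc, an activity-regulated gene of the cytoskeleton, averaged 225 ± 15.3 (SD, n = 3) in PBS and 86.3 ± 13.1 (SD, n = 3) in hlOSM, with changes of −0.66 with mLIF (adjusted p = 0.000254), −0.74 with mOSM (adjusted p = 5.29e-06) and −1.38 with hlOSM (adjusted p = 3.57e-10). Egr2, a relative of Egr1, had 90, 81 and 87 in PBS and 41, 44 and 54 in hlOSM. Egr2 fell with mOSM (−0.57, adjusted p = 0.00125) and with hlOSM (−0.89, adjusted p = 6.54e-06). Trib1, a pseudokinase that steers C/EBP proteins to degradation, had 151, 142 and 121 in PBS, 218, 195 and 236 in mLIF, 337, 377 and 361 in mOSM, and 339, 355 and 411 in hlOSM. Its log2 fold changes of 0.65, 1.37 and 1.41 all passed the threshold. Zfp36, which encodes the mRNA-destabilizing protein tristetraprolin, rose by 0.57 with mLIF (adjusted p = 0.00713), 0.95 with mOSM (adjusted p = 6.02e-06) and 0.93 with hlOSM (adjusted p = 6.1e-06). The list genes named next were chosen after their values were seen. Egr3, Nr4a1 and Nr4a3, which belong to the EGR and NR4A families, fell with hlOSM by −0.74, −0.69 and −0.67, and Ier3 and Myc rose by 0.85 and 0.44. Nr4a2, also of the NR4A family, was low and not called with hlOSM (−0.14, adjusted p = 0.617).

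**Figure D4:**
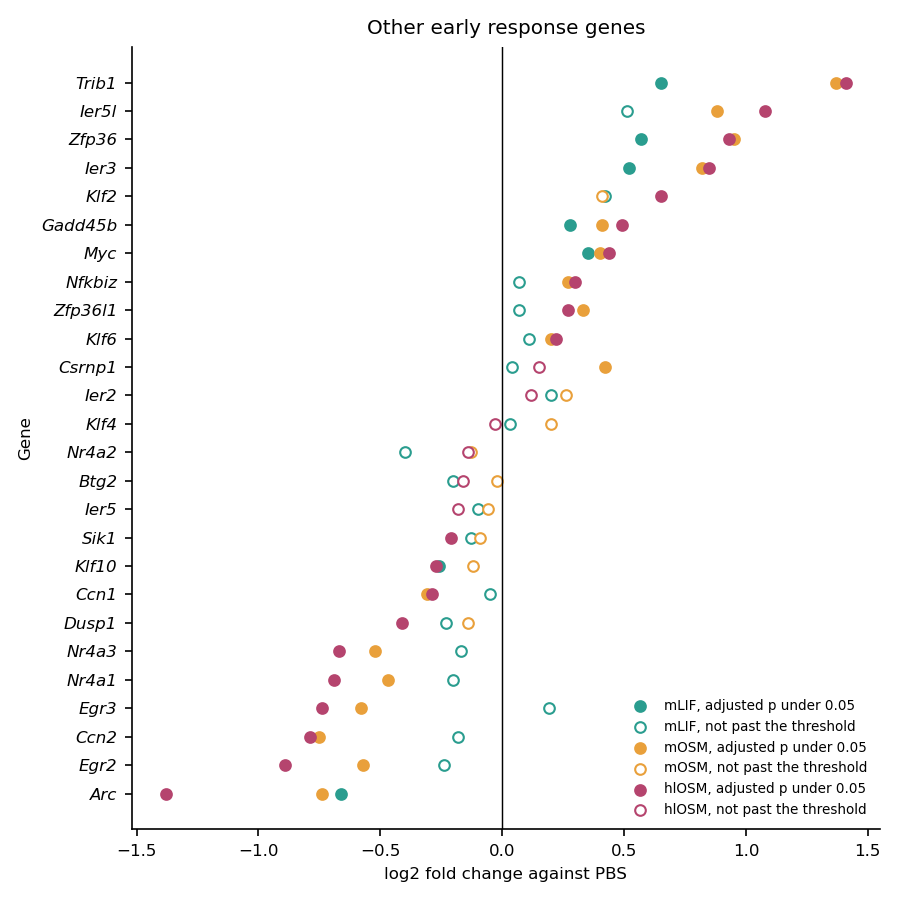
Log2 fold changes against PBS (horizontal axis) of the 26 other early response genes tested, in the order of their value with hlOSM, for mLIF, mOSM and hlOSM. Filled symbols passed an adjusted p under 0.05 in the fit without a block. Trib1 reaches 1.41 and Arc −1.38 with hlOSM.

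Among 12 further basic leucine zipper factors that can pair with FOS or JUN proteins, 9 passed the filter. Of these, 0 rose with any cytokine, 1 fell with mLIF (Maf) and 2 fell with mOSM and with hlOSM (Maf and Jdp2, the latter named after its values were seen). Of all genes tested, 9.91% were called with mLIF. With mOSM, 15.4% of all genes rose and 15.8% fell, and with hlOSM 18.2% rose and 19.8% fell. The 2 of 9 lowered by hlOSM are thus close to the share of all genes. The median log2 fold change of the 9 tested factors of this list was −0.09 for mLIF, 0.01 for mOSM and −0.05 for hlOSM. Maf, a large MAF protein with an activation domain, had 523, 512 and 550 in PBS, 372, 423 and 379 in mLIF, 290, 266 and 341 in mOSM, and 236, 227 and 210 in hlOSM. The 4 groups of Maf did not overlap. Its log2 fold changes were −0.43 with mLIF (adjusted p = 0.00136), −0.83 with mOSM (adjusted p = 3.92e-08) and −1.23 with hlOSM (adjusted p = 5.69e-11).

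All 28 listed kinases and promoter-bound activators upstream of these factors were tested. With mLIF, 3 rose and 2 fell, with mOSM 4 rose and 6 fell, and with hlOSM 5 rose and 9 fell, while the median stayed between −0.04 and 0.03. In the blocked fit, 2 rose and 1 fell with mLIF, and 4 rose and 7 fell with hlOSM. For hlOSM, these counts compare with 18.2% of all genes raised and 19.8% lowered without the block, so that 5 of 28 is close to the share of all genes. Without the block, 15.4% of all genes rose and 15.8% fell with mOSM, and 9.91% were called with mLIF. Crem, a CREB relative whose short forms repress cAMP-responsive promoters, rose by 0.44 with mLIF (adjusted p = 0.0235), 0.63 with mOSM (adjusted p = 0.000318) and 0.57 with hlOSM (adjusted p = 0.000721). In the blocked fit, the adjusted p of Crem with mLIF was 0.0672. Map2k1, which encodes the ERK kinase MEK1, rose by 0.41 with mOSM (adjusted p = 0.00134) and by 0.47 with hlOSM (adjusted p = 0.000263). Rps6ka5, which encodes the kinase MSK1 at immediate early genes, had 91, 105 and 111 in PBS and 49, 60 and 63 in hlOSM, a change of −0.83 (adjusted p = 3e-05). Rps6ka2, which encodes an RSK kinase, changed by −0.60 with hlOSM (adjusted p = 0.00132).

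Of 19 genes with known AP-1 sites, 18 were tested. With mLIF, 3 rose and 1 fell (median log2 fold change 0.03). With mOSM, 9 rose and 1 fell (median 0.17), and with hlOSM 9 rose and 2 fell (median 0.25), where 18.2% of all genes rose and 19.8% fell. Of all genes, 15.4% rose and 15.8% fell with mOSM, and 9.91% were called with mLIF. In the blocked fit, 2 rose and 1 fell with mLIF, and the counts with mOSM and hlOSM did not change. Il6, the founding cytokine of the family to which LIF and OSM belong, had 8, 15 and 11 in PBS, 11, 16 and 11 in mLIF, 111, 76 and 108 in mOSM, and 110, 58 and 92 in hlOSM, which gave log2 fold changes of 3.03 with mOSM (adjusted p = 1.72e-09) and 2.82 with hlOSM (adjusted p = 3.13e-09). Spp1, which encodes osteopontin, rose by 1.80 with mOSM (adjusted p = 4.06e-10) and by 1.76 with hlOSM (adjusted p = 3.43e-10). In the opposite direction, Ccnd1, which encodes cyclin D1, had 278, 295 and 304 in PBS, 278, 256 and 291 in mLIF, 90, 98 and 77 in mOSM, and 90, 84 and 104 in hlOSM. Its log2 fold change was −1.72 with mOSM (adjusted p = 6.07e-12) and −1.65 with hlOSM (adjusted p = 8.47e-12). Nppa, which encodes atrial natriuretic peptide, changed by −0.37 with hlOSM (adjusted p = 0.00663). These promoters also bind other factors, and AP-1 activity was not measured.

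For each factor called by the F test, 8670 genes whose normalized counts averaged 50 or more were searched for the most similar log2 values over the 12 libraries, which fall into the 4 conditions. The 2 most similar genes to Jun were Cdpf1 and Tmf1 (Pearson's r = 0.98 for both), with log2 fold changes of −0.49 and −0.25 with hlOSM. Junb was closest to Tm4sf1 (r = 0.96) and Gpr146 (r = 0.95), and Jund to Xbp1 (r = 0.97) and Bcl9 (r = 0.96). Fosl1 was closest to Dlgap4 (r = 0.97) and Nfkbiz (r = 0.96), and Fosl2 to Atp6v0d1 (r = 0.97) and Txn1 (r = 0.95). Fos was close to Cpsf4 (r = 0.92), and Atf3 was closest to Gm45053 (r = 0.92) and Mylk2 (r = 0.90). These values are a description of likeness, and no test was made.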

How the data were processed

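RNA of primary cardiomyocytes was sequenced by the study with a stranded total RNA kit. According to the methods and the submitters' processing notes, the authors aligned the trimmed reads to mm10 with STAR 2.7.7a, counted them per gene with featureCounts 1.6.5, leaving out reads that lay on several genes, and normalized the counts. The values deposited by the authors are scores on a normalized count scale, rounded to whole numbers, and the normalization step is not given in the sources used here, so that tests for read counts were not used.

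Conditions were taken from the sample titles. The 12 libraries entered 1 fit of 4 conditions with limma 3.58.1 (lmFit and eBayes with trend, R 4.3.3) on log2(normalized count + 1), without a block, for the 13184 genes that reached 10 in 3 or more libraries. Genes were called at an adjusted p under 0.05 (two-sided, Benjamini-Hochberg over all genes tested), without a minimum fold change, and fold changes are on this log2 scale. The fit was tested on simulated data. Python 3.11.15 was used for counts, levels and sequences, with exon lengths from GENCODE M21.

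The 9 factors and all gene lists were chosen with earlier results of these data known. From each list that holds no cell type markers, the text names the 2 highest and the 2 lowest log2 fold changes with hlOSM among those genes past the threshold whose normalized counts averaged 50 or more. For each factor past the F test, it also names the 2 most similar genes, of which 1 is not reported here. Other settings tried were pseudocounts of 0.1 and 5, filters at 50 and none, rescaling by trimmed mean of M-values or quantiles, a robust fit, the replicate number as a block, a fit restricted to the 6 libraries compared, and leaving out each library in turn.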

Additional observations from a re-analysis of the deposited data

How the results depend on the processing

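Over the settings that left all libraries in, 467 of the values of single factors kept their direction and their side of the threshold, 9 lost the threshold, 2 passed it and 2 turned in sign. The latter were near 0, namely Fos with mOSM against PBS at 0.0019 under trimmed-mean rescaling, and Fosb with hlOSM against mOSM at 0.0018 with a pseudocount of 5. With mLIF against PBS, the count of factors called was 1 (Jun) with a filter at 50 and 1 with only the 6 libraries compared, in place of 0. With hlOSM against mLIF, the count was 1 (Fosl1) without a filter, in place of 3. Jund lost its call under quantile normalization with mOSM against PBS, and in hlOSM against mLIF also without a filter, in a robust fit and with only the 6 libraries compared (adjusted p 0.0307 to 0.117 over the settings). At a filter of 50, Fosb has no value, and the F test was not run with only 6 libraries. The causes were not tested.

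With each library left out in turn, the count ranged from 0 to 1 for mLIF, 4 to 6 for mOSM and 5 to 7 for hlOSM against PBS, stayed at 0 for hlOSM against mOSM, and ranged from 0 to 3 for hlOSM and 1 to 2 for mOSM against mLIF, and from 5 to 7 for the F test. Of the values of single factors, 598 kept direction and call, 27 lost the threshold, 5 passed it and 18 turned in sign. The sign turned for Fosl1 (range −0.07 to 0.18) and Egr1 (−0.04 to 0.08) with mLIF, Fos with mOSM (−0.07 to 0.03) and Egr1 with hlOSM (−0.09 to 0.06), all against PBS. It also turned for Fosb (−0.30 to 0.26), Fosl1 (−0.16 to 0.07) and Jund (−0.01 to 0.09) in hlOSM against mOSM, and for Fosb (−0.57 to 0.00048) and Egr1 (−0.12 to 0.04) in hlOSM against mLIF. None of these was past the threshold.

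In the fit with a replicate block, 5 factors were called with mOSM against PBS, 1 with hlOSM against mLIF and 5 by the F test, and the other counts did not change. The factors that lost their call are named beside their results. The deviations of same-numbered libraries correlated between −0.518 and 0.0221 over 18 pairs, against −0.119 to 0.481 for libraries of other numbers, so that the same number did not go with a positive correlation. Since 1.7% of the variance within conditions lay between replicate numbers, against 25% without an effect, these correlations do not show that same-numbered libraries are unrelated. Whether an effect of the number was taken out before deposit was not tested, and calls lost with the block should be read as uncertain. The depth behind single values is unknown, and Fosb, at 9 to 21, was measured least precisely.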

Other observations

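The 9 factors differed in how closely their libraries repeated. In PBS, the coefficient of variation of the normalized counts was 0.977% for Fos, 2.16% for Jund, 3.46% for Junb and 4.95% for Jun, against 16.9% for Fosl1 and 11.6% for Atf3. With hlOSM, it was 3.20% for Fos, 14.9% for Fosl1 and 42.6% for Fosb. Over all 12 libraries, the ratio of the highest to the lowest value was 1.28 for Jund, 1.35 for Junb, 1.39 for Fos and for Fosl2, 1.40 for Egr1, 1.47 for Atf3, 1.57 for Jun, 2.07 for Fosl1 and 2.33 for Fosb.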
